A study of Mus musculus and Homo sapiens with 7 samples.

Results

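MT-RNR2 is the mitochondrial gene for the 16S rRNA, the RNA of the large subunit of the mitochondrial ribosome. Its profile was taken from the RNA recovered with EOLA1, an ASCH domain protein that the series title ties to mitochondrial translation. The members were the 32 bins of the mitochondrial chromosome, of 332 in all, whose midpoint lay in the gene, at chrM positions 1671 to 3229 (1559 bases; the human build named by the submitters is GRCh38.p14). Each bin held 50 bases. The gene lies between the tRNA genes MT-TV and MT-TL1.

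The RNA came from 293T HEK cells, a human embryonic kidney line, as 1 group of 2 replicates. The cells carried no labelled genetic change or drug. They were crosslinked with ultraviolet light at 400 mJ/cm2, lysed, and the lysates precipitated with an antibody to EOLA1, a procedure called UV-RIP. The series also holds a guide screen in mouse melanoma cells, which was not used here. No input and no control precipitation were analysed here, so a high count in a stretch of MT-RNR2 cannot be told apart from a high abundance or an easy recovery of that stretch. Nothing in the labels says whether the replicates came from separate cultures, so the spread between them may be technical. With 1 group there was no comparison of conditions and no test, and all values below are descriptions.

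The mitochondrial ribosome translates the mRNAs of the mitochondrial genome, which encode subunits of the respiratory chain and of ATP synthase. The large subunit rRNA folds, from its 5′ to its 3′ end, into domains numbered I to VI, arranged around the peptidyl transferase center, where peptide bonds form. Domain V holds most of that center, with the P loop and the A loop that position the ends of the tRNAs. A few of its nucleotides are modified after transcription by dedicated enzymes. TRMT61B methylates an adenosine in domain IV, MRM1 methylates a guanosine of the P loop, MRM2 and MRM3 methylate neighbouring nucleotides of the A loop, and RPUSD4 makes a pseudouridine in domain V.

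All mitochondrial bins together held 114188 counts in replicate 1 and 217229 in replicate 2. MT-RNR2 held 50152 of these in replicate 1 and 89068 in replicate 2. That is 43.9% in replicate 1 (95% Wilson interval 43.6 to 44.2) and 41.0% in replicate 2 (40.8 to 41.2). The gene made up 9.64% of the bins. Its share thus differed little between the replicates, although the intervals, which cover counting error only, did not overlap. Of its 32 bins, 20 stood at 2 or more times the chromosome's mean bin in both replicates, against 9.34% of all bins. In MT-RNR1, which gives the small subunit its 12S rRNA, this held for 9 of 19 bins. No bin of MT-RNR2 was empty. The count per bin ran from 243 to 4842 in replicate 1, with a median of 1067, and from 225 to 16605 in replicate 2, with a median of 1780. Bins outside both rRNAs had medians of 52 and 120 counts in replicates 1 and 2, so the emptiest bins of MT-RNR2 still lay above the typical bin elsewhere.

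The counts of MT-RNR2 were gathered in a central stretch of its 5′ part. From the bin 2101 to 2150 to the bin 2251 to 2300, 4 adjacent bins held 32.8% of the gene's counts in replicate 1 (95% Wilson interval 32.4 to 33.2) and 50.1% in replicate 2 (49.8 to 50.5), or 41.5% ± 12.3 (SD, n = 2), where an even spread would give 12.5%. These 4 bins, grouped after the profile was seen, were the highest of the gene by mean share and in replicate 2. In replicate 1 the bin 2651 to 2700 ranked 4 and the bin 2151 to 2200 ranked 5. The point where 50% of all counts, summed from the 5′ end, were reached lay in the bin 2251 to 2300 in replicate 1 and in the bin 2151 to 2200 in replicate 2.

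The bin 2101 to 2150 had 4140 counts in replicate 1 and 16605 in replicate 2, where it was the highest bin of the whole chromosome. It took 8.25% and 18.6% of the gene's counts. The bin 2151 to 2200 had 2850 and 15346 counts, or 5.68% and 17.2%. In replicate 1 it was thus lower than the bins on either side, while in replicate 2 it was nearly level with the bin before it.

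The bins 2201 to 2250 and 2251 to 2300 were more alike in the replicates. The bin 2201 to 2250 had 4606 and 6284 counts in replicates 1 and 2, or 9.18% and 7.06% of the gene. The bin 2251 to 2300 had 4842 and 6426 counts, or 9.65% and 7.21%. It was the highest bin of the gene in replicate 1 and the third in replicate 2. The highest position within the central stretch therefore lay 3 bins further 3′ in replicate 1 than in replicate 2.

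A bin was called high when it held at least 2 times its even share of the gene, which is 3.13% per bin, in both replicates. This picked out 3 bins, 2101 to 2150 and the adjoining pair 2201 to 2250 and 2251 to 2300. The bin 2151 to 2200 fell short only in replicate 1, at 1.82 times an even share, with 5.51 times in replicate 2. The fifth bin by mean share, 2651 to 2700, was high in replicate 1 alone, at 2.47 times against 0.60 times in replicate 2. No other bin reached 2 times in either replicate. Of the 32 bins, 20 lay below an even share in both replicates, 6 lay above it in both, and 6 lay above it in a single replicate.

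**Figure D1:**
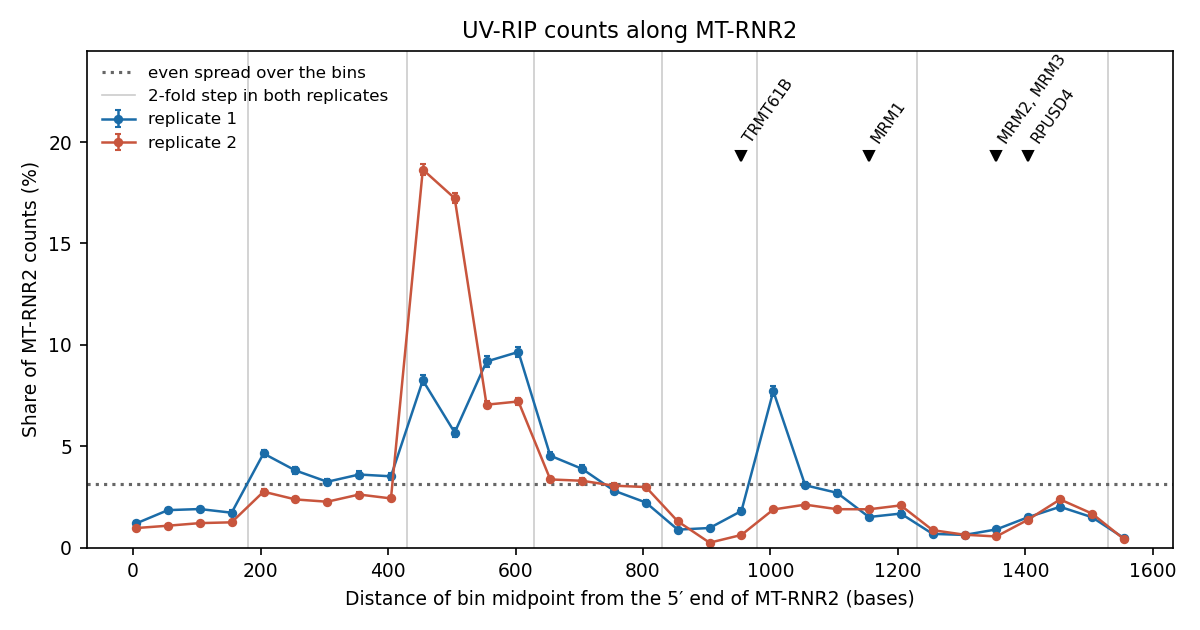
Share of the counts of MT-RNR2 (percent) in each of its 32 bins against the distance of the bin's midpoint from the 5′ end of the gene (bases), for replicates 1 and 2; bars are 95% Wilson intervals (counting error only), grey lines mark borders where both replicates stepped 2-fold, and triangles mark bins with modified nucleotides. Both replicates are highest in the stretch of 4 bins between the second and the third of the grey lines, replicate 2 reaching 18.6% there and replicate 1 9.65%.

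The profile was stepped rather than smooth, and most large steps stood at the same borders in both replicates. Of the 31 borders between neighbouring bins, 7 showed a change of at least 2-fold in the same direction in both replicates. Taken alone, replicate 1 had 8 such steps and replicate 2 had 11. At 9 borders the neighbours were within 1.2-fold of each other in both. In MT-RNR1 4 of 18 borders stepped 2-fold in both replicates and 0 were within 1.2-fold in both. A fragment can reach over several bins, and whether it was then counted in each is not given in the sources used here, so neighbouring bins need not be independent.

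The 7 steps divide MT-RNR2 into 8 stretches of 1 to 6 bins. The first stretch, 1651 to 1850, held 6.70% of the gene's counts in replicate 1 and 4.54% in replicate 2. Entering the second, 1851 to 2100, the count changed from 868 to 2332 in replicate 1 and from 1120 to 2464 in replicate 2. This second stretch was a plateau, its 5 bins ranging from 1633 to 2332 counts in replicate 1 and from 2024 to 2464 in replicate 2. It held 18.9% and 12.5% of the gene's counts.

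The third stretch, 2101 to 2300, is the central one. At its 5′ border the count changed 2.34-fold in replicate 1 and 7.66-fold in replicate 2. At its 3′ border the change was nearly the same in both, 2.13-fold downward in replicate 1 and 2.14-fold in replicate 2. The fourth stretch, 2301 to 2500, held 13.5% and 12.7% of the gene's counts in replicates 1 and 2. Within it replicate 2 was almost flat, from 3003 to 2669 counts, while replicate 1 declined bin by bin from 2278 to 1120.

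The fifth stretch, 2501 to 2650, was a trough of 3 bins between higher neighbours, with 3.69% and 2.20% of the gene's counts. Its middle bin, 2551 to 2600, was the lowest of the whole gene in replicate 2, with 225 counts, and had 490 counts in replicate 1. In the sixth stretch, 2651 to 2900, which held 16.7% and 9.91%, the replicates had different shapes. Replicate 1 had a single high bin, 2651 to 2700, with 3872 counts and 762 to 1547 in the others. Replicate 2 was a plateau, from 1683 to 1896 counts over all 5 bins.

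The seventh stretch, 2901 to 3200, held 7.28% and 7.55% of the gene's counts, and the shares were closest here among the stretches of over 1 bin. It began with a fall from 847 to 345 counts in replicate 1 and from 1863 to 776 in replicate 2. Further 3′ the counts rose to 1014 in replicate 1 and 2125 in replicate 2 in the bin 3101 to 3150. That was 3.18 and 4.26 times the lowest bin of the stretch. The next bin had 757 and 1505 counts. The eighth stretch was the last bin alone, 3201 to 3250, with 243 and 389 counts. This bin lies partly outside the gene, which may add to the step before it. Per bin, the order of the stretches ran from the third, the highest in both replicates, to the eighth, the lowest in both. The sixth placed 4 in both, the second and the fourth exchanged places, and the first, the fifth and the seventh came in a different order in each replicate.

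**Figure D2:**
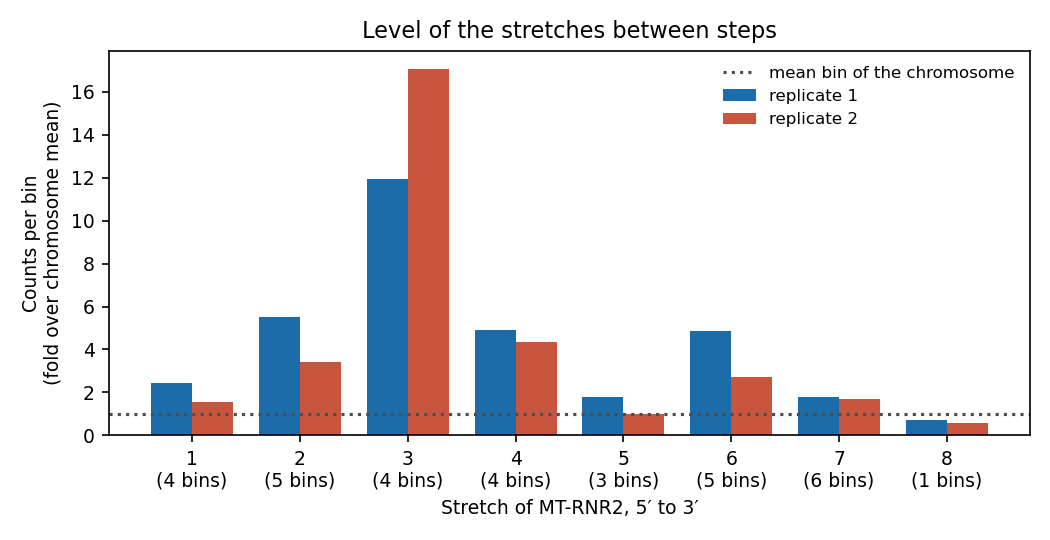
Counts per bin, as fold over the mean bin of the chromosome, in the 8 stretches of MT-RNR2 between the borders where both replicates stepped 2-fold; the bars give replicates 1 and 2 and the dotted line the chromosome's mean bin. The third stretch stands at 11.9 and 17.1 times that mean, and the last stretch, at 0.71 and 0.59 times, is below it in both replicates. The last stretch lies partly outside the gene.

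At 0.25 times or less of an even share in both replicates, 2 bins were called low. Replicate 1 alone had 3 such bins and replicate 2 alone had 5. The bin 2951 to 3000 had 319 counts in replicate 1 and 576 in replicate 2, or 0.64% and 0.65% of the gene. The last bin, 3201 to 3250, had 0.48% and 0.44%, the lowest mean share of the gene. Only 29 of its 50 bases lie in MT-RNR2, while the even share is that of a full bin, so its low call rests in part on this. The bin 2551 to 2600, the second lowest by mean share, was low in replicate 2 alone, at 0.98% and 0.25%. Both bins called low lay in the 3′ part of the gene.

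Of the 32 bins, from highest to lowest, the first ranked 26 in both replicates and the last ranked 32 and 31. Both lie partly outside the gene. Several interior bins, such as 2951 to 3000 with 319 and 576 counts, were lower than the first. The first bin, 1651 to 1700, had 602 and 868 counts, with 30 bases in MT-RNR2 and 20 in MT-TV. The tRNA of MT-TV serves as a structural RNA of the human mitochondrial ribosome. The bin before it, 1601 to 1650 in MT-TV, had 284 and 519 counts. The last bin, 3201 to 3250, holds 29 bases of MT-RNR2 and 21 of MT-TL1, a leucine tRNA. The bin after it, 3251 to 3300, had 47 and 98 counts, so the count fell 5.17-fold in replicate 1 and 3.97-fold in replicate 2 across the 3′ end of the gene. Across the 5′ end the change was smaller, at 2.12-fold and 1.67-fold.

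The profile was then set against the parts of the rRNA that can be placed by its modified nucleotides, whose positions were taken from general knowledge of the 16S rRNA and could not be checked against a sequence. The 19 bins on the 5′ side of the bin with the TRMT61B site cover domains I to III and part of domain IV. They held 73.7% of the gene's counts in replicate 1 and 81.5% in replicate 2, where an even spread would give 59.4%. The central stretch lies in this part. The 6 bins from the MRM1 site to the RPUSD4 site, which run through much of domain V, held 6.95% and 7.46%, where an even spread would give 18.8%. The 3 bins beyond the RPUSD4 site, which lead into domain VI, held 4.02% and 4.51% against an even 9.38%. Per bin, counts were thus higher on the 5′ side of the TRMT61B site than from the MRM1 site to the RPUSD4 site in both replicates. The bins from 2601 to 2800 belong to neither of these 2 parts. They ranged from 912 to 3872 counts in replicate 1 and from 566 to 1896 in replicate 2.

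None of the 4 bins with a modified nucleotide was high. Only 3 of all 32 bins of the gene were, so this count says little about these sites. The bin 2601 to 2650, with the adenosine methylated by TRMT61B, had 912 and 566 counts, or 0.58 and 0.20 times an even share. It lies in the trough and directly before the bin that was high in replicate 1 alone. The bin 2801 to 2850, with the P loop nucleotide methylated by MRM1, had 762 and 1692 counts, or 0.49 and 0.61 times an even share. The bin 3001 to 3050, with both A loop nucleotides methylated by MRM2 and MRM3, had 455 and 499 counts, or 0.29 and 0.18 times, which placed it 28 and 30 among the 32 bins. The bin 3051 to 3100, with the uridine that RPUSD4 converts to pseudouridine, had 759 and 1240 counts, or 0.48 and 0.45 times. A bin of 50 bases cannot resolve a single nucleotide.

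As shares of all chromosome counts, the replicates differed past 2-fold in 5 bins of MT-RNR2, which lay in 2 runs. Replicate 2 was higher in 2 bins of 32, where 12.5% of all bins of the chromosome with a count in both replicates were. Replicate 1 was higher in 3 bins, against 4.86% of all bins. With so few bins, the shares of MT-RNR2 bins called are a description beside that background. In MT-RNR1 0 of 19 bins passed 2-fold in either direction. The calls depended on the scale, since the median bin of the chromosome had a log2 ratio of 0.24. Relative to that median, 1 bin of MT-RNR2 was higher in replicate 2 (7.29% of all bins) and 7 were higher in replicate 1 (9.42% of all bins), as were 4 of MT-RNR1. The bin 2101 to 2150 then fell within 2-fold, at 0.83. The bins 1701 to 1750, 1851 to 1900, 1901 to 1950 and 3001 to 3050 passed, between −1.11 and −1.02, beside 4 of the 5 bins described next.

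The 2 bins that were higher in replicate 2 adjoin each other in the 5′ part of the central stretch. For the bin 2101 to 2150 the log2 ratio of replicate 2 to replicate 1 was 1.08 (95% counting interval 1.03 to 1.12), and for the bin 2151 to 2200 it was 1.5 (1.44 to 1.56). Together they held 6990 counts in replicate 1 and 31951 in replicate 2, or 13.9% and 35.9% of the gene. The next in this direction, 2501 to 2550 at the start of the trough, stood at 0.44 (0.29 to 0.60), within 2-fold.

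The 3 bins that were higher in replicate 1 also adjoin each other, around the end of the trough. The log2 ratio was −2.05 (−2.28 to −1.82) for the bin 2551 to 2600, −1.62 (−1.77 to −1.47) for the bin 2601 to 2650 and −2.13 (−2.21 to −2.05) for the bin 2651 to 2700. In all 3 bins replicate 1 had more counts than replicate 2 outright, 490 against 225, 912 against 566 and 3872 against 1683. Its total over all mitochondrial bins was the smaller. The other 27 bins lay between −0.87 and 0.44, and for 24 of them the interval excluded 0.

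Over the gene the median log2 ratio of a bin was −0.50, with 22 of 32 bins below 0, while the median over all 329 bins of the chromosome with a count in both replicates was 0.24. In MT-RNR1 the median was −0.44. The share of the whole gene was nevertheless close in both replicates. Without the 2 bins of the central stretch that were higher in replicate 2, an alternative chosen for that ratio after the values were seen, MT-RNR2 held 40.3% of the remaining counts in replicate 1 and 30.8% in replicate 2. As these bins were picked for being higher in replicate 2, a lower share there follows from the choice, and only its size is given.

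**Figure D3:**
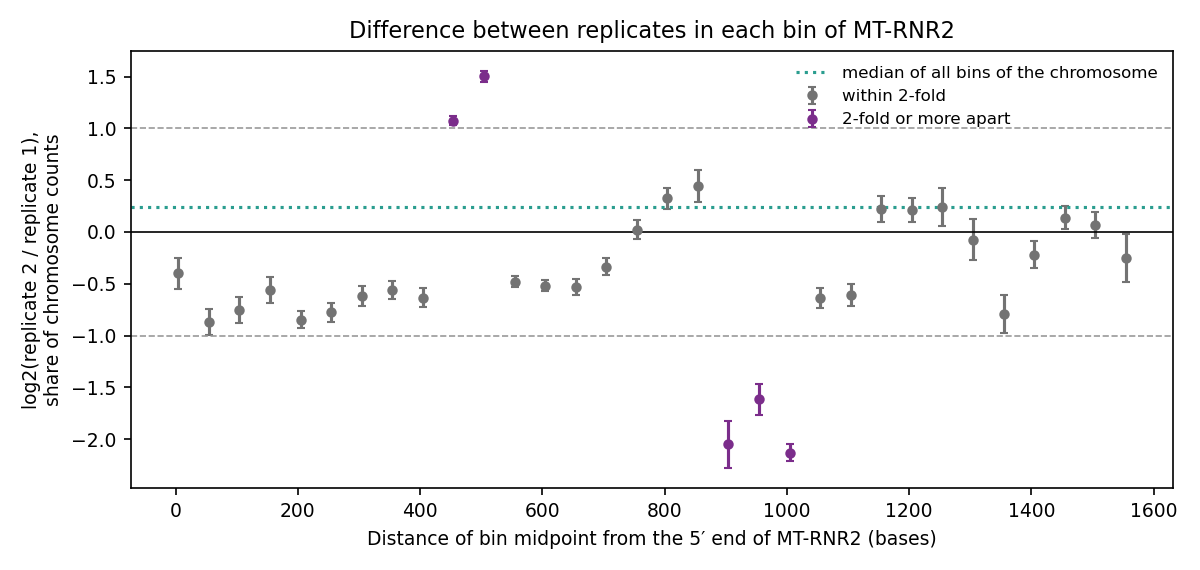
Log2 ratio of replicate 2 to replicate 1 (shares of all chromosome counts) in each bin of MT-RNR2 against the distance of the bin's midpoint from the 5′ end of the gene (bases); bars are 95% counting intervals, dashed lines mark 2-fold and the dotted line the median of all bins of the chromosome. On this scale the 5 bins past 2-fold form 2 runs, 2 adjacent bins at 1.08 and 1.5 and 3 adjacent bins between −2.13 and −1.62.

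The concentration of counts in MT-RNR2 varied more between the replicates than that in MT-RNR1, and its order against MT-RNR1 depended on the measure. Its 5 highest bins held 40.5% and 53.5% of its counts, or 47.0% ± 9.20 (SD, n = 2), where an even spread would give 15.6%. The 5 highest bins of MT-RNR1 held 71.3% and 72.7%, or 72.02% ± 1.02, against an even 26.3%. The highest bin of MT-RNR2 stood at 4.54 and 9.33 times its median bin, and that of MT-RNR1 at 13.7 and 13.0 times. As the 2 genes have different numbers of bins, the shares of 5 bins were divided by their even values. This gave 2.59 and 3.42 for MT-RNR2 in replicates 1 and 2, and 2.71 and 2.76 for MT-RNR1. The coefficient of variation over bins was 0.80 and 1.34 in MT-RNR2, and 1.47 and 1.34 in MT-RNR1. In replicate 2 MT-RNR2 was thus above MT-RNR1 by the first of these and level with it by the second. Both measures can reach higher values in a gene with more bins, so they do not put the 2 genes on an equal scale. Of the 5 highest bins of MT-RNR2 in each replicate, 4 were shared. The Spearman correlation of the replicates was 0.859 across its 32 bins, against 0.96 across the 19 bins of MT-RNR1, and of 0.84 without the 2 bins that were higher in replicate 2. Bins of a gene share their library and neighbours, so these are descriptions.

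Among the mitochondrial genes, the level of MT-RNR2 per bin was the second highest in both replicates, at 4.56 and 4.25 times the chromosome's mean bin. Only MT-RNR1 was higher, at 5.84 and 4.63 times. The lower value of MT-RNR1, 4.63, was just above the higher one of MT-RNR2, 4.56. This order held in both libraries, and with 2 replicates it was not tested. The share of MT-RNR2 had a log2 ratio of replicate 2 to replicate 1 of −0.10 (95% counting interval −0.11 to −0.09). Of the 21 other genes of at least 2 bins, 19 had a higher ratio, and the exceptions were MT-RNR1 at −0.34 and the glutamate tRNA MT-TE at −2.32. Nearest to it in this ratio, over the 2 samples, were MT-CYB, which encodes cytochrome b of complex III, at −0.09, MT-CO2, a subunit of cytochrome c oxidase, at −0.09, and MT-ATP8, a subunit of ATP synthase, at 0.04. Their levels per bin were far lower, at 0.12, 0.57 and 0.26 times the chromosome's mean bin on average.

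**Figure D4:**
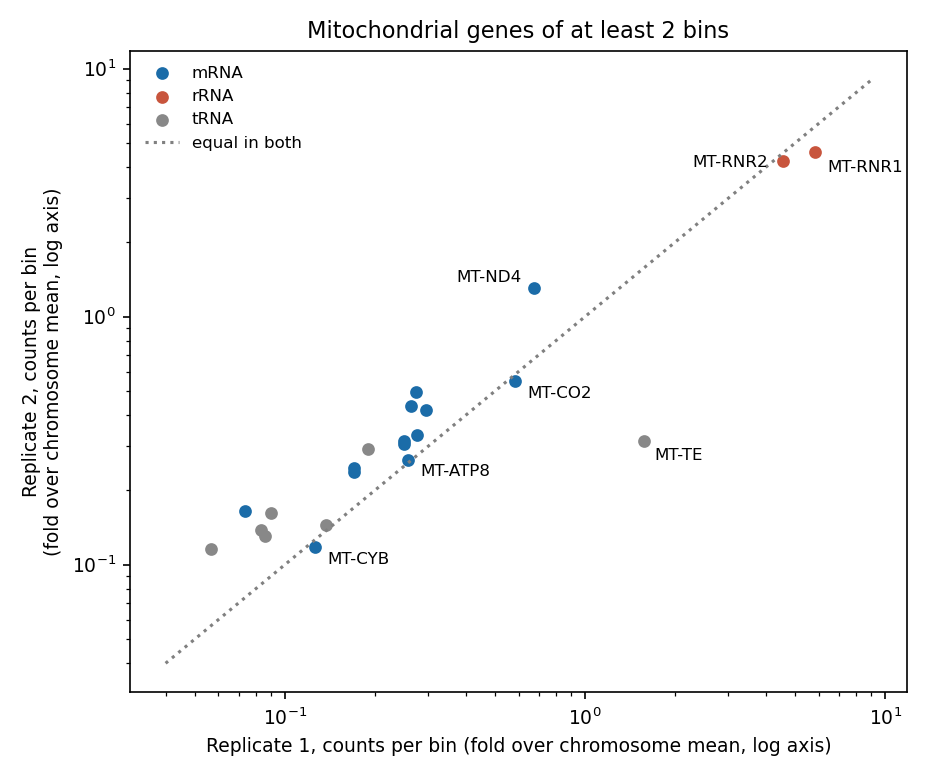
Counts per bin of each mitochondrial gene of at least 2 bins, as fold over the mean bin of the chromosome, in replicate 1 (x axis) and replicate 2 (y axis), both on log axes; the dotted line marks equal levels. MT-RNR2, at 4.56 and 4.25, lies close to that line, and MT-ND4 above it at 0.68 and 1.30.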

How the data were processed

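The authors' deposited UV-RIP tables hold whole-number counts per bin of chrM, with no header and starts counted from 0; positions here are counted from 1. The submitters' processing notes name Trim Galore, STAR, Picard and MAGeCK 0.5.9.5, without their roles, and the builds GRCm39 and GRCh38.p14. Whether reads, fragments or bases were counted, and how strands, duplicates and multiply mapping reads were treated, is not given in the sources used here. The last bin ends at 16569. Gene coordinates came from general knowledge of the human mitochondrial reference; bins were assigned by midpoint.

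Shares, Wilson intervals at 95% and log2 ratios (with intervals for 2 independent counts) were computed in Python 3.11.15 with scipy 1.17.1 and pandas 2.3.3, and the ratio step was tested on simulated data. Intervals assume independent counts and so are too narrow where 1 fragment fills several bins. No test was run, as there is 1 group. Members, landmarks and thresholds were chosen with earlier results of these data known, and the division into stretches was made after seeing the profile. The bins named are the 5 highest and 3 lowest, the 3 with the largest ratio in each direction, those with landmarks and those at the ends, with others described as part of a stretch. The check of each landmark's base, and the sarcin-ricin loop, which was to be found by a motif, were left out, since no human sequence was used here; the screen was not used here.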

Additional observations from a re-analysis of the deposited data

How the results depend on the processing

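The share of MT-RNR2, 42.5% on average, moved by less than the SD between replicates with boundary bins left out or split. It was 60.9% with MT-RNR1 out of the denominator and 35.5% without the 2 bins that were higher in replicate 2 (chosen after seeing the data). The 3 high bins became 4 at 1.5 times an even share and 0 at 3 times. The 2 low bins became 0 at 0.1 times an even share and 8 at 0.5 times. The 5 bins past 2-fold between replicates numbered 5 as shares of MT-RNR2 or over bins with at least 100 counts (added after seeing the data), and were 8 (1 higher in replicate 2, 7 in replicate 1) when scaled by the median ratio of all bins, 14 at 1.5-fold and 3 at 3-fold. The 5 highest bins held 47.0%, the 3 highest 35.1% and the 10 highest 64.6%. The 7 borders with a 2-fold step became 9 at 1.5-fold and 1 at 3-fold, all settings chosen after seeing the data. The border left at 3-fold was that before the last bin, which lies partly outside the gene. With 1 replicate alone, the share ran from 41.0% to 43.9%, the high bins were 4 in either (3 of them shared), the low bins 3 to 5, the share of the 5 highest bins 40.5% to 53.5% and the stepped borders 8 to 11; the larger counts of low bins and borders came from replicate 2. No paired analysis was possible because the UV-RIP has 1 group. Every bin of MT-RNR2 held at least 225 counts in each replicate. If counts are independent, counting error was small beside the spread between replicates in the bins past 2-fold. Whether they are is not known, as the unit counted is not given.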
